A study of Mus musculus with 4 samples.

Results

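Heat shock and chaperone genes were followed in the mesenchyme of mouse molar tooth germs at embryonic day 14. Members were chosen by gene symbol: every symbol of the Hspa, Hspb, Hspd, Hspe, Hsph, Hsp90, Dnaja, Dnajb, Dnajc and numbered Cct families in the deposited tables, which gave 78 genes among 22072 gene names. The groups were Msx1-/- (mutant) upper molars, Msx1+/- (control) upper molars, mutant lower molars and control lower molars, with 1 library in each. All came from a mixed background. Laser capture, which takes chosen cells out of a tissue slice, was used on frozen sections of the head. Tissue from 3 pairs was combined for each extraction, so a library is a pool with no replicate, and whether both jaws came from the same embryos is not stated. The labels name the controls Msx1+/- in the sample titles but wild type in the series title, they do not name the Msx1 allele, and they put all 4 libraries in the same sequencing lane. Values are FPKM (fragments per kilobase of transcript, scaled to the mapped fragments), summed over a gene's transcripts. Differences within a jaw are given with no test, because no group has a second library. A limma fit over all 4 libraries, with the jaws standing in for replicates, was run as an alternative. At an adjusted p under 0.05 it called 0 of 58 members for genotype, against 680 of 10536 genes tested. At an unadjusted p under 0.05 it called 15 members (25.9%, against 17.0% of all genes). It gave every member the same standard error (0.297), so its p-values follow the mean difference and do not measure a gene's own spread. Its values were not rescaled, so differences in scale between libraries enter these shares. A gene is counted as higher or lower where log2(FPKM + 1) differed by 1 or more and the 4 libraries averaged 1 FPKM or more. Other differences are given as values on that scale.

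Molecular chaperones help proteins fold and keep unfolded ones from clumping. Hsp70 proteins bind exposed stretches of a client in a cycle that J-domain proteins (the Dnaj families) start, Hsp90 acts on clients that are nearly folded, the CCT ring folds actin and tubulin, and small heat shock proteins hold unfolded proteins without using ATP. Some of these genes are kept on in all growing cells, whereas others are switched on by the transcription factor Hsf1 when cells are heated or otherwise stressed, including by dissection and warming of tissue. The second set therefore serves as a common check of handling stress.

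Msx1 itself, the labelled mutant gene, was still read in the mutant libraries, at 126 FPKM in mutant upper, 170 in control upper, 85.9 in mutant lower and 184 in control lower molars, so it is no check of the labels. Summed coverage ran between 264 megabases (mutant lower) and 410 megabases (control upper). The mutant lower library stood apart, in that the median mutant minus control difference over 10536 genes was -0.39 in lower molars and -0.03 in upper molars. Every call in the lower molars rests on that library, and the comparison without it is the upper one. Mesenchymal markers had all 12 of 12 genes tested and summed to 1064 FPKM in mutant upper, 1018 in control upper, 828 in mutant lower and 1079 in control lower molars. Within that list Prrx2 was counted as lower in both jaws, with 26.6 FPKM in mutant upper, 83.9 in control upper, 25.8 in mutant lower and 73.7 in control lower molars, and Twist1 as lower in lower molars. That is 1 of 12 in upper and 2 of 12 in lower molars, against 3.26% and 9.43% of all genes tested. Of 10 skeletal muscle markers 2 were tested, and the list summed to 4.26 FPKM in mutant upper, 5.14 in control upper, 4.80 in mutant lower and 7.04 in control lower molars. Its defining genes Myod1, Myog and Ckm had at most 0.0427 FPKM, whereas Chrna1 had between 1.52 and 2.70.

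The chaperone genes were mostly expressed. Of the 78 members, 55 had at least 1 FPKM in every library and 24 had at least 10, whereas 18 were under 1 FPKM in every library and Dnajb8 was listed at 0 in all 4. A mean of at least 1 FPKM was reached by 58 members, and the other 20 entered no count. Just outside that limit were Hspa2 (mean 0.791 FPKM) and Dnajc16 (0.789), and just inside it Dnajb3 (1.11) and Dnajb14 (1.33). The members together made up 1.08% of all FPKM in mutant upper, 1.14% in control upper, 0.961% in mutant lower and 1.22% in control lower molars. Just 3 genes, Hsp90ab1, Hspa8 and Hsp90b1, held 48.9% of the members' FPKM in mutant upper, 49.4% in control upper, 44.8% in mutant lower and 46.4% in control lower molars.

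The heat-inducible Hsp70 genes Hspa1a and Hspa1b, the textbook targets of Hsf1, were barely read in any library. Hspa1a (chromosome 17, 35106304 to 35109101, mm9) had 0.178 FPKM in mutant upper, 0.0421 in control upper, 0.222 in mutant lower and 0.118 in control lower molars. Hspa1b (chromosome 17, 35093374 to 35096183) had 0.220 FPKM in mutant upper, 0.2003 in control upper, 0.140 in mutant lower and 0.178 in control lower molars. All 8 values lie below the limit of 1 FPKM, and neither gene entered a count. Over the 2798-base Hspa1a transcript the values stand for 542 aligned bases in mutant upper, 123 in control upper, 573 in mutant lower and 268 in control lower molars, so a difference between the genotypes was not detectable at this depth. The 2 genes lie 10120 bases apart and are near-identical copies, and the sources used here do not say how reads that fit both were shared, so their split is uncertain and their sum is the safer value. That sum was 0.125% of the FPKM of Hspa8, the constitutive Hsp70, in mutant upper, 0.0612% in control upper, 0.198% in mutant lower and 0.0698% in control lower molars.

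The promoters of these copies show how alike the loci are. RefSeq promoter windows (build GRCm38.p6, 250 bases before to 50 bases from the start, read 5′ to 3′ along the gene) match at 296 of 300 bases, and the 4 bases that differ are in capitals.
Hspa1a, chr17:34972107-34972406, minus strand: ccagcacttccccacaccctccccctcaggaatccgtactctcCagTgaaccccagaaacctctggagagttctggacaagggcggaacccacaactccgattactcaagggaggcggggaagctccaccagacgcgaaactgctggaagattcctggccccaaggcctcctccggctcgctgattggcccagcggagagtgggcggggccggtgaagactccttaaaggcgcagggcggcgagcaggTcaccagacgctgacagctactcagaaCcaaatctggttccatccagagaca
Hspa1b, chr17:34959189-34959488, minus strand: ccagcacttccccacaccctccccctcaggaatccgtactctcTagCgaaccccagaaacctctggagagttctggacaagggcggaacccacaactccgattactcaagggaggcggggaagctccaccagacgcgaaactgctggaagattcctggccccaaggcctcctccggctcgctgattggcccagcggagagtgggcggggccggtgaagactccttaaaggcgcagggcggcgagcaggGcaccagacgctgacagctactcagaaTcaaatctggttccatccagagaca

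The other heat-inducible genes were read in every library, and those above 10 FPKM in the controls were lower in both mutants (the plot of stress-inducible and constitutive levels). Hsp90aa1, the inducible cytosolic Hsp90, had 58.5 FPKM in mutant upper, 66.1 in control upper, 45.9 in mutant lower and 74.9 in control lower molars. Dnaja1, a J-domain partner of cytosolic Hsp70, had 17.9 FPKM in mutant upper, 26.4 in control upper, 14.7 in mutant lower and 31.7 in control lower molars. In both genes the mutant libraries are the lower pair and mutant lower is the lowest of all. Dnajb1, the J-domain protein best known as Hsf1-induced Hsp40, had 12.6 FPKM in mutant upper, 16.6 in control upper, 10.2 in mutant lower and 18.4 in control lower molars. Hsph1, the Hsp110 that exchanges nucleotide on Hsp70, had 11.8 FPKM in mutant upper, 14.4 in control upper, 9.15 in mutant lower and 19.3 in control lower molars. For these 4 genes both mutant libraries lie below both controls, an order found in 41.2% of all genes tested. The mutant minus control difference of Dnaja1 was -0.54 in upper molars and -1.06 in lower molars, and that of Hsph1 was -0.27 in upper molars and -1.004 in lower molars. Both were counted in lower molars alone, where 9.43% of all genes were lower, and neither call held after rescaling of the libraries. Hsp90aa1 (-0.17 in upper, -0.69 in lower) and Dnajb1 (-0.37 in upper, -0.79 in lower) were counted in neither jaw.

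**Figure D1:**
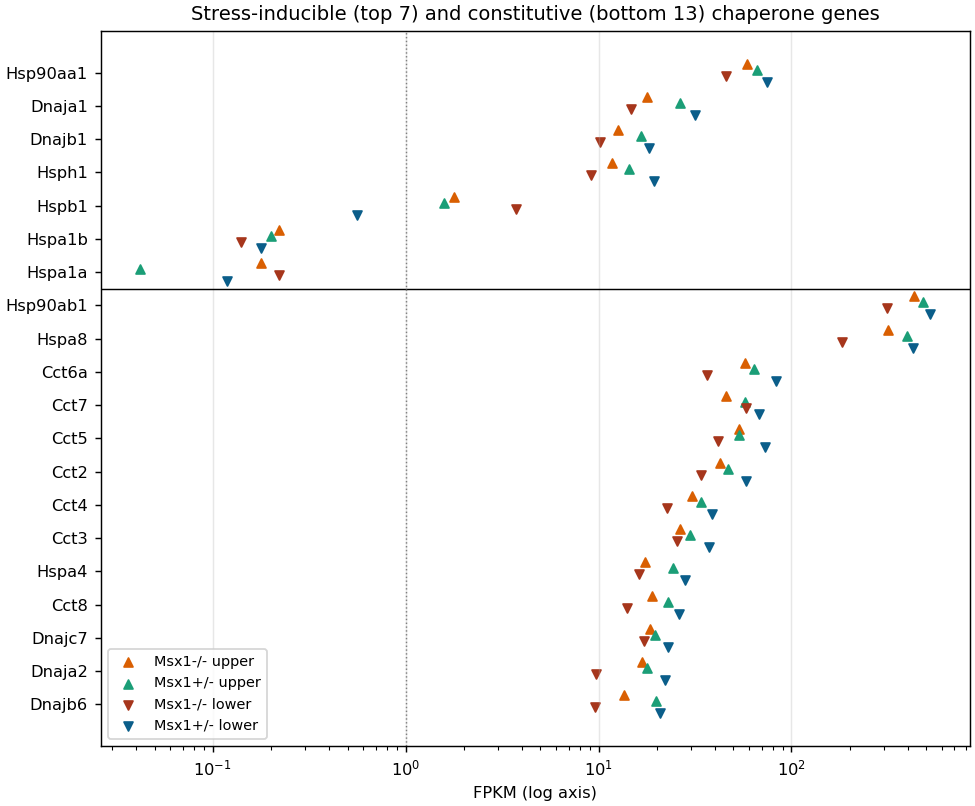
FPKM on a log axis of the 7 stress-inducible genes (above the line) and 13 constitutive cytosolic and CCT genes (below it), with a triangle for each library and the limit of 1 FPKM dotted. Hspa1a and Hspa1b sit far left of every constitutive gene, and mutant lower is the lowest library for most genes but the highest for Hspb1.

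Hspb1 (Hsp27, a small heat shock protein that Hsf1 also induces) went the other way. It had 1.78 FPKM in mutant upper, 1.59 in control upper, 3.73 in mutant lower and 0.560 in control lower molars. Both mutants lie above both controls, by 0.10 in upper and 1.60 in lower molars, so it was counted as higher in lower molars. The low end rests on little sequence: 1743 aligned bases in mutant upper, 1498 in control upper, 3113 in mutant lower and 411 in control lower molars.

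Set against constitutive chaperones, the stress-inducible group took about the same share in all 4 libraries. The 7 stress-inducible genes summed to 103 FPKM in mutant upper, 125 in control upper, 84.1 in mutant lower and 145 in control lower molars. The 13 constitutive cytosolic and CCT genes summed to 1093 FPKM in mutant upper, 1268 in control upper, 780 in mutant lower and 1426 in control lower molars. Both sums were lowest in mutant lower and highest in control lower molars. The inducible sum was 9.42% of the constitutive sum in mutant upper, 9.88% in control upper, 10.8% in mutant lower and 10.2% in control lower molars. The log2 ratio of mutant to control share was -0.07 in upper and 0.08 in lower molars. This ratio is taken within a library and so does not depend on its scaling. Hsp90aa1 dominates the inducible sum, and without it the log2 ratio was -0.20 in upper and -0.01 in lower molars. Geometric means of FPKM + 1, which give abundant genes less weight, gave 0.06 in upper and 0.53 in lower molars. Unlike the ratio of sums, these depend on the scale of a library. They include Hspa1a and Hspa1b, both under 1 FPKM, and Hspb1, which differed by 1.60 in lower molars. Hsp90aa1, Dnaja1, Dnajb1 and Hsph1 differed there by -1.06 to -0.69.

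The paired view within each family was equally flat for Hsp90. Hsp90aa1 stood at 13.5% of its constitutive partner Hsp90ab1 in mutant upper, 13.7% in control upper, 14.7% in mutant lower and 14.3% in control lower molars. Hsph1 stood at 67.7% of the constitutive Hsp110 gene Hspa4 in mutant upper, 59.4% in control upper, 56.7% in mutant lower and 69.1% in control lower molars. Dnajb1 stood at 74.8% of Dnaja2 in mutant upper, 92.9% in control upper, 106% in mutant lower and 83.5% in control lower molars. The Hsph1 and Dnajb1 ratios thus differed between the genotypes in opposite directions in the 2 jaws.

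**Figure D2:**
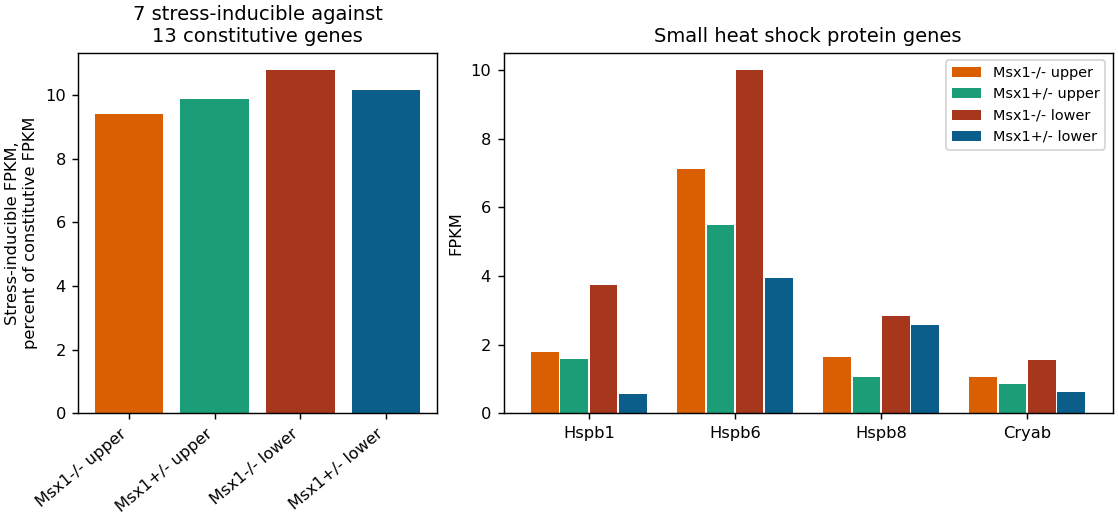
Left, the summed FPKM of 7 stress-inducible genes as a percent of that of 13 constitutive genes, a bar for each library. The bars run between 9.42% and 10.8%. Right, FPKM of 4 small heat shock protein genes, where mutant lower is the highest bar for Hspb1, Hspb6, Hspb8 and Cryab.

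The constitutive cytosolic chaperones include Hsp90ab1 and Hspa8, which rank among the most abundant genes of the tissue. In all 6 genes of the group both mutant libraries lay below both controls, an order found in 41.2% of all genes tested. Hsp90ab1 (chromosome 17, 45704727 to 45710210) had 433 FPKM in mutant upper, 482 in control upper, 312 in mutant lower and 523 in control lower molars. Hspa8 (chromosome 9, 40609356 to 40613282), the Hsc70 that works in every cell, had 318 FPKM in mutant upper, 396 in control upper, 183 in mutant lower and 424 in control lower molars. By rank of FPKM within a library Hspa8 stood at 81 in mutant upper, 59 in control upper, 111 in mutant lower and 69 in control lower molars. Hspa8 was thus counted as lower in lower molars (-1.21), where Hsp90ab1 was not (-0.74). Both genes have processed pseudogene copies, which makes their exact levels uncertain. Of the other J-domain partners, Dnajb6, an aggregation suppressor, had the largest mean difference (-0.52 in upper, -1.05 in lower molars), and Dnajc7, which carries TPR repeats, the least (-0.09 in upper, -0.40 in lower). All 6 genes were below the all-gene median difference in both jaws. By definition 5268 of 10536 genes tested lie below it in each jaw, and how many do so in both was not counted. In lower molars 3 of 6, Hspa8, Dnaja2 and Dnajb6, were counted as lower, against 9.43% of all genes tested, and none of these calls held after rescaling of the libraries (given with the whole set).

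The CCT genes encode subunits of a shared ring-shaped complex. The expressed ones ran between 19.0 and 57.3 FPKM in mutant upper and between 22.8 and 64.0 in control upper molars. They ran between 14.0 and 58.4 FPKM in mutant lower and between 26.1 and 83.6 in control lower molars. The 7 expressed subunits had a median of 42.5 FPKM in mutant upper, 46.8 in control upper, 34.0 in mutant lower and 58.2 in control lower molars. Cct8 was the lowest subunit in all 4 libraries, at 19.0 FPKM in mutant upper, 22.8 in control upper, 14.0 in mutant lower and 26.1 in control lower molars. Cct6a had 57.3 FPKM in mutant upper, 64.0 in control upper, 36.4 in mutant lower and 83.6 in control lower molars. It was the highest subunit in 3 libraries and the only one counted, at -1.18 in lower molars. That is 1 of 7, against 9.43% of all genes, and the call did not hold after rescaling. Cct7 was highest in the other library and differed least in lower molars, with 46.0 FPKM in mutant upper, 57.5 in control upper, 58.4 in mutant lower and 68.1 in control lower molars. Cct6b, a subunit gene known for expression in testis, had at most 0.139 FPKM. The eighth ring subunit, Tcp1, falls outside the symbol rule and had 41.7 FPKM in mutant upper, 45.1 in control upper, 37.3 in mutant lower and 54.1 in control lower molars.

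Chaperones of the endoplasmic reticulum (ER) fold secreted and membrane proteins, and Hspa5 (BiP), the ER Hsp70, had the lowest lower-molar difference of all 58 members tested. Hspa5 (chromosome 2, 34627610 to 34632049) had 77.7 FPKM in mutant upper, 88.2 in control upper, 41.5 in mutant lower and 113 in control lower molars. Mutants differed from controls by -0.18 (upper) and -1.42 (lower), or by -1.04 in lower molars relative to the median of all genes. Hsp90b1 (Grp94), the ER Hsp90, had 181 FPKM in mutant upper, 165 in control upper, 127 in mutant lower and 203 in control lower molars, and its genotypes overlap. Dnajb11, a BiP cofactor, had 17.8 FPKM in mutant upper, 30.5 in control upper, 13.9 in mutant lower and 28.9 in control lower molars. It had the lowest upper-molar difference of all members (-0.74) and was counted in lower molars at -1.004. Dnajb9, another BiP cofactor, had 4.03 FPKM in mutant upper, 6.04 in control upper, 1.67 in mutant lower and 5.11 in control lower molars, and was counted in lower molars at -1.19. In all, 3 of 12 ER genes tested were lower in lower molars, against 9.43% of all genes, and none higher. None of the 3 calls held after rescaling. Dnajc18 stood at the other end of the group (0.30 in upper, -0.25 in lower).

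Promoter windows were read because heat shock factors and the unfolded protein response act through known DNA elements. Windows were found for 64 of the 78 members, and a gene can have several. A heat shock element of 3 units, GAANNTTCNNGAA on either strand, was in the windows of 4 of 64 members (6.25%), Hspd1, Hspe1, Hsph1 and Dnajb6, against 0.662% of 27025 genes in the table. The shorter TTCNNGAA, which the longer motif contains, was in 12.5% of members and 9.60% of all genes. Of 6 stress-inducible genes with a window 1, Hsph1, held the longer element. The windows of Hspa1a and Hspa1b printed above matched neither form. Only exact letters were searched, and units in the order GAANNTTC, which both windows hold (gaagattc), were not. A window without a match may therefore still hold a heat shock element of another form. The windows of Hspe1 and Hsph1 are shown, since they hold the longer element, with its letters in capitals. In Hspe1 the 2 overlapping matches lie at -89 to -72 from the start, and in Hsph1 the match lies past the start.
Hspe1, chr1:55087898-55088197, plus strand: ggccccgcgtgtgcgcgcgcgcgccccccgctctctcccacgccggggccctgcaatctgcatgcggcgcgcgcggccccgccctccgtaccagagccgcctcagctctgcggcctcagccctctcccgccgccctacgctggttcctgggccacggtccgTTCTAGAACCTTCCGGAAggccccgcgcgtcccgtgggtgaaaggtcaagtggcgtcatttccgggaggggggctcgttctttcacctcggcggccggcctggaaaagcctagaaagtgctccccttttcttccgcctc
Hsph1, chr5:149636287-149636586, minus strand: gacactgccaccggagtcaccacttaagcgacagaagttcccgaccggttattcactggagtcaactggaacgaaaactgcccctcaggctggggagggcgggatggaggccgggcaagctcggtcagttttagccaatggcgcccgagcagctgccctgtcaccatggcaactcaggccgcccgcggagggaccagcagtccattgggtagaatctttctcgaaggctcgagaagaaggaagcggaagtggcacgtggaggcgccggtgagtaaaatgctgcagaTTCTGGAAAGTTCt

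An ER stress element, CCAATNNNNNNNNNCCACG on either strand, was in the windows of 3 of 64 members (4.69%), Hspa5, Hsp90b1 and Dnajc3, against 0.137% of all genes. All 3 are ER chaperone genes. The Hspa5 window is shown with the element, at -65 to -47, in capitals. These matches describe letters in a window and are not measured binding.
Hspa5, chr2:34771840-34772139, plus strand: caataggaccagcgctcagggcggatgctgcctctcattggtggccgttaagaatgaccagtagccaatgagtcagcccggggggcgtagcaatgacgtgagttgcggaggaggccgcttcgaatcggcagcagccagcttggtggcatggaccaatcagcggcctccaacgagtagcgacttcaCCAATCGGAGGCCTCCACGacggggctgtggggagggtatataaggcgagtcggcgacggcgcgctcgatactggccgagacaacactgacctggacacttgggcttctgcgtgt

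In mitochondria Hspd1 (Hsp60) and its lid Hspe1 (Hsp10) fold imported proteins, and the 2 genes sit head to head on chromosome 1 with 215 bases between them. The promoter window of Hspd1 overlaps that of Hspe1 printed above on the opposite strand and holds the same element. Hspd1 had 48.1 FPKM in mutant upper, 66.3 in control upper, 33.1 in mutant lower and 76.4 in control lower molars, and was counted as lower in lower molars (-1.18). Hspe1 had 128 FPKM in mutant upper, 106 in control upper, 97.5 in mutant lower and 184 in control lower molars, with a difference of 0.27 in upper molars and -0.91 in lower molars, counted in neither. The Hspe1 to Hspd1 ratio was 2.66 in mutant upper, 1.60 in control upper, 2.94 in mutant lower and 2.41 in control lower molars, above the control in both jaws. Dnajc11, which works with the complex that shapes the inner membrane, had the highest mean difference of the group (-0.20 in upper, -0.11 in lower molars). Hspd1 was the 1 of 7 genes counted as lower in lower molars, against 9.43% of all genes, and its call did not hold after rescaling.

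Few small heat shock genes were expressed. Of the 6 in this group Hspb2, Hspb3, Hspb7 and Hspb9, known mostly from muscle, heart or testis, had at most 0.292 FPKM. Hspb6 (Hsp20) had 7.14 FPKM in mutant upper, 5.49 in control upper, 9.999 in mutant lower and 3.94 in control lower molars. Both mutants thus lie above both controls, as in 9.52% of all genes tested, and Hspb6 was counted as higher in lower molars (1.15). Hspb8, a partner of Bag3 in clearing aggregates, had 1.64 FPKM in mutant upper, 1.04 in control upper, 2.82 in mutant lower and 2.58 in control lower molars, and was counted in neither jaw. Cryab, a small heat shock gene outside the symbol rule and chosen here after its values were seen, had 1.06 FPKM in mutant upper, 0.863 in control upper, 1.55 in mutant lower and 0.623 in control lower molars. The 12 epithelial markers summed to 57.4 FPKM in mutant upper, 33.1 in control upper, 76.4 in mutant lower and 53.2 in control lower molars. Of 7 epithelial genes tested 2, Krt15 and Krt5, were counted as higher in upper molars, against 1.07% of all genes. In lower molars 2 were, Krt15 and Perp, against 0.864%. Krt15 was thus counted in both jaws, against 0.399% of all genes. Cdh1 had at most 0.143 FPKM and Shh at most 0.0190. The 10 macrophage markers summed to 35.6 FPKM in mutant upper, 26.3 in control upper, 44.8 in mutant lower and 37.1 in control lower molars, with 0 of 8 tested genes counted in either jaw. Of these 8 genes 7 lay above the all-gene median difference in upper molars and 8 in lower molars. The part of either cell type in the Hspb1 and Hspb6 result was not tested. In these pooled tissue samples fewer cells of a type and less RNA per cell cannot be told apart.

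Over the whole set, no chaperone gene passed the threshold between the genotypes in upper molars, and 14 did in lower molars (the plot of both jaws). In upper molars 0 of 58 members were higher, against 1.07% of all genes tested, and 0 were lower, against 3.26%. In lower molars 2 members were higher, Hspb1 and Hspb6 (3.45%, against 0.864% of all genes). Lower were 12 members (20.7%, against 9.43% of all genes): Cct6a, Dnaja1, Dnaja2, Dnajb11, Dnajb5, Dnajb6, Dnajb9, Dnajc8, Hspa5, Hspa8, Hspd1 and Hsph1. None passed in both jaws, where 0.399% of all genes were higher and 1.59% lower.

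**Figure D3:**
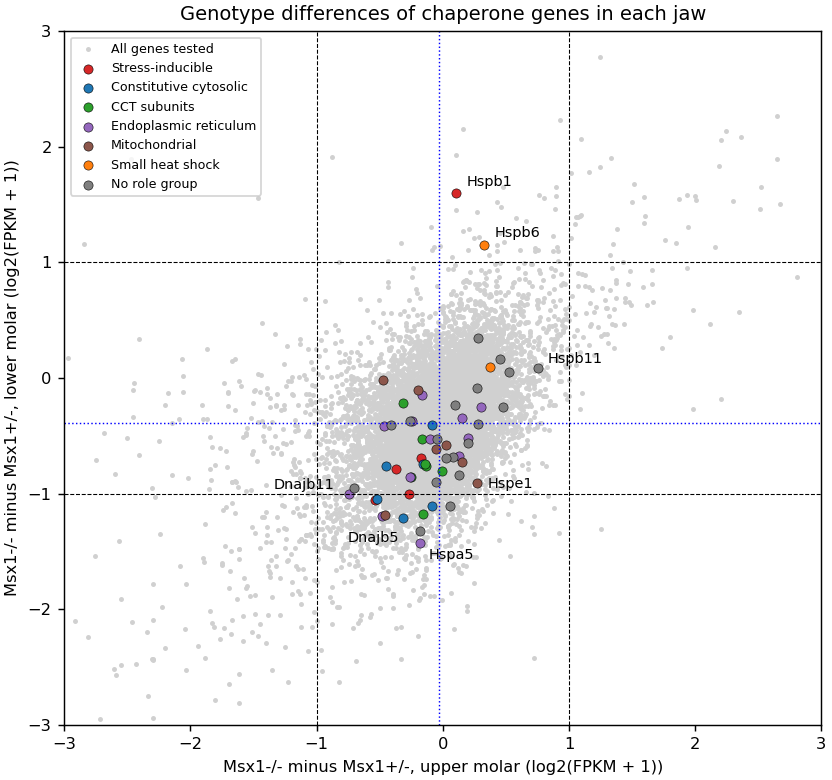
Mutant minus control difference in log2(FPKM + 1) in upper (x axis) and lower molars (y axis), with all genes tested in grey and the 58 members coloured by role. Dashed lines mark the threshold of 1, dotted lines the medians of all genes (-0.03 and -0.39), and 32 genes lie beyond the axes. No member passes a vertical dashed line, and Hspb1 and Hspb6 are the 2 members above the upper horizontal one.

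The lower-molar count of lower members moves with the scale of the mutant lower library. After each of 3 rescalings (median of ratios, upper quartile, total) Dnajb5, a J-domain gene with 2.45 FPKM in mutant upper, 2.90 in control upper, 0.906 in mutant lower and 3.77 in control lower molars, was the only member still lower. That is 1 of 58, against 2.82% to 3.00% of all genes lower after rescaling, so the members' count no longer exceeds the share of all genes. Hspb1 and Hspb6 were higher in lower molars under all 3, which is 2 of 58, against 2.39% to 2.65% of all genes. The members' median difference was -0.10 in upper molars and -0.64 in lower molars, which is -0.06 and -0.26 relative to the median of all genes. Relative to that median 34 of 58 members were lower in upper and 40 of 58 in lower molars.

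A count of full separation, added after the values were seen, asks only for the order of the libraries. Both mutant libraries lay below both controls in 33 of 58 members (56.9%, against 41.2% of all genes) and above both in 5 (8.62%, against 9.52%): Dnajb4, Hspa12b, Hspb1, Hspb11 and Hspb6. With the libraries rescaled by median of ratios, 23 members lay below (39.7%, against 23.5%) and 9 above (15.5%, against 24.3%). Among the 23 were Hsp90aa1, Hsp90ab1, Hspa8, Hspa4, Hspa5, Hspd1, Hsph1, Dnaja1, Dnajb1 and 4 CCT subunits. Hspb11, chosen here after its values were seen, had the highest upper-molar difference of the members (0.76). It carries a heat shock symbol but is known as a subunit of the intraflagellar transport machinery of cilia.

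On the deposited scale the lower-molar shift was greatest for abundant members. Of 20 members with a mean of at least 20 FPKM 7 were lower in lower molars (35.0%, median -0.78), against 19.6% of 1276 genes at that level (median -0.55). Of 20 members between 5 and 20 FPKM 3 were (15.0%, median -0.53), against 11.7% of 4056 genes (median -0.46). Of 18 members between 1 and 5 FPKM 2 were (11.1%, median -0.39), against 5.21% of 5204 genes (median -0.28). Abundant genes of all kinds thus had lower differences than weak ones, and the members' medians lie below those of their level in each class. The log2(FPKM + 1) scale understates change of weak genes, so the 3 classes are not measured alike. None of the 7 calls among the most abundant members held after rescaling.

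By role the medians in lower molars, relative to that of all genes, ran from the constitutive cytosolic group upward. They were -0.52 for constitutive cytosolic, -0.40 for stress-inducible, -0.37 for CCT, -0.23 for mitochondrial and -0.13 for ER genes, with -0.02 for the 19 tested members in no role group. In upper molars they were -0.20 for constitutive cytosolic, -0.23 for stress-inducible, -0.13 for CCT, -0.02 for mitochondrial and -0.14 for ER genes, with 0.13 for members in no role group. The 2 small heat shock genes tested gave 1.01 in lower and 0.38 in upper molars. Stress-inducible and constitutive groups therefore lay side by side in both jaws, and the members without a role group near the median of all genes. The groups differ in abundance, and these medians were not adjusted for it.

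**Figure D4:**
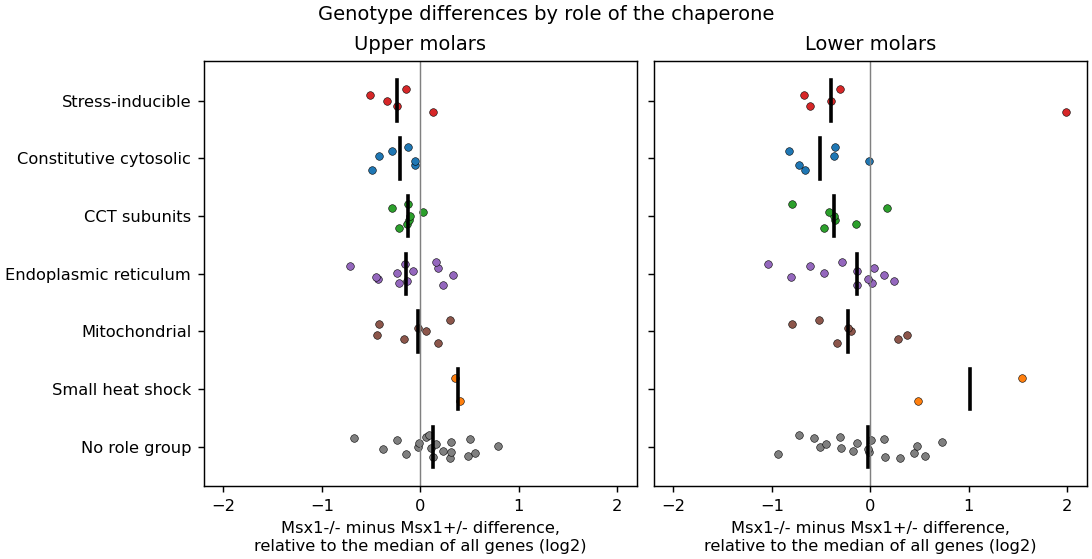
Mutant minus control difference of each tested member, relative to the median of all genes in that jaw (x axis, log2), by role; a black bar marks the group's median. The stress-inducible, constitutive and CCT bars lie left of 0 in both jaws, and the stress-inducible point far right in lower molars is Hspb1.

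Between the jaws no chaperone gene passed the threshold. In mutants 0 of 58 members were higher in upper molars, against 3.22% of all genes, and 0 lower, against 0.418%. In controls 0 members were higher in upper molars, against 1.48%, and 0 lower, against 0.218%. The widest jaw differences thus stayed under the threshold. In mutants the highest upper minus lower differences were those of Dnajb9 (0.91), Hspa5 (0.89) and Dnajb5 (0.85), and the lowest those of Hspb1 (-0.77), Hspb8 (-0.53) and Hspb6 (-0.44). In controls Hspb1 (0.73), Hspb6 (0.39) and Dnajc19 (0.36), a gene of mitochondrial import, were the highest. The lowest there were Hspb8 (-0.81), Hspe1 (-0.79) and Dnajc15 (-0.72), the last another gene of mitochondrial import. Hspb1 and Hspb6 thus had opposite jaw differences in the genotypes, whereas Hspb8 was lower in upper molars in both. The 4 comparisons share libraries in pairs, so these values are not independent.

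The genotype difference in upper molars minus that in lower molars was at least 1 in 6 members (10.3%, against 5.6% of all genes): Hspa5 (1.24), Hspe1 (1.18), Dnajc8 (1.16), Dnajb5 (1.14), Dnaja2 (1.03) and Cct6a (1.02). It was at most -1 in 1 member (1.72%, against 1.31%), Hspb1 (-1.50), followed by Hspb6 (-0.83) and Dnajc19 (-0.46). Dnajc8, a J-domain gene tied to splicing, had 22.7 FPKM in mutant upper, 21.8 in control upper, 13.1 in mutant lower and 29.3 in control lower molars. After each of the 3 rescalings none of the first 6 passed, against 1.51% to 1.77% of all genes. Hspb1 and Hspb6 both passed in the other direction, 2 of 58 against 2.41% to 2.88% of all genes.

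Among genes that work with the chaperones, that of the heat shock factor Hsf1 had 11.6 FPKM in mutant upper, 13.5 in control upper, 8.87 in mutant lower and 15.0 in control lower molars. In the list of heat shock factors and other targets, 1 of 13 genes tested was lower in upper molars, against 3.26% of all genes, and 3 in lower molars, against 9.43%. Ubb, a polyubiquitin gene, had 309 FPKM in mutant upper, 327 in control upper, 172 in mutant lower and 357 in control lower molars. It was counted as lower in lower molars, but under none of the 3 rescalings, and in neither direction in upper molars.

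Bag3, an Hsf1 target that links Hsp70 to the clearing of aggregates, was the only gene of the heat shock factor and cochaperone lists counted in both jaws. It had 13.3 FPKM in mutant upper, 28.3 in control upper, 8.09 in mutant lower and 20.6 in control lower molars (-1.04 in upper, -1.25 in lower), but passed under none of the 3 rescalings in either jaw. Among 21 cochaperone genes 2 were lower in upper molars, Bag3 and Grpel1, the mitochondrial Hsp70 exchange factor, and 5 in lower molars, against 3.26% and 9.43% of all genes. Under all 3 rescalings Grpel1 was lower in upper molars and Ptges3 and Fkbp5 in lower molars, whereas Bag2 and Cacybp passed under none. The Hsp90 cochaperone Ptges3 (p23) had 35.3 FPKM in mutant upper, 39.3 in control upper, 13.9 in mutant lower and 53.4 in control lower molars. Fkbp4, which binds Hsp90 with steroid receptors, had 54.5 FPKM in mutant upper, 53.6 in control upper, 32.5 in mutant lower and 63.6 in control lower molars, and was not counted. No cochaperone gene was higher in either jaw.

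Prefoldin hands unfolded actin and tubulin to the CCT ring. Of 9 genes of prefoldin, Tcp1 and related factors none was counted in upper molars, against 1.07% of all genes higher and 3.26% lower. In lower molars 3, Pfdn2, Pfdn4 and Pdcl3, were lower, against 9.43% of all genes. Only Pfdn2 of these passed under the 3 rescalings. Pfdn5, the most abundant, had 150 FPKM in mutant upper, 128 in control upper, 167 in mutant lower and 184 in control lower molars. Of 15 ER stress genes none was counted in upper molars, against 1.07% of all genes higher and 3.26% lower. In lower molars 5 were lower, Pdia3, Pdia4, Pdia6, Sdf2l1 and Manf, against 9.43% of all genes. Sdf2l1 passed under all 3 rescalings and the other 4 under none. Calr, an ER lectin chaperone, had 93.1 FPKM in mutant upper, 75.1 in control upper, 75.1 in mutant lower and 96.5 in control lower molars. Pdia3, a disulfide isomerase, had 74.3 FPKM in mutant upper, 68.6 in control upper, 41.6 in mutant lower and 91.0 in control lower molars. Of the ER stress genes with a proapoptotic role Ddit3 (Chop) had between 3.94 and 5.52 FPKM and Trib3 at most 0.289, both chosen after their values were seen.

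Immediate-early genes, which cells switch on within minutes of a stimulus or of handling, included 2 genes counted in both jaws, which no chaperone gene was. Egr1 had 2.47 FPKM in mutant upper, 167 in control upper, 2.72 in mutant lower and 113 in control lower molars. Ier2 had 3.32 FPKM in mutant upper, 12.8 in control upper, 3.64 in mutant lower and 12.1 in control lower molars. Of 8 genes tested these 2 passed in both jaws as lower, against 1.59% of all genes. Nr4a1 and Zfp36 were lower in lower molars alone, where 4 of 8 genes were thus lower, against 9.43% of all genes. Myc, next in abundance after Egr1, was counted in neither jaw. Fos, chosen after its values were seen, had 0.206 FPKM in mutant upper, 1.12 in control upper, 0.143 in mutant lower and 0.959 in control lower molars, and Atf3, chosen likewise, had at most 0.133 FPKM. What handling contributed to any of these levels was not tested.

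Transcript choice touched few members. Of 103 transcript entries for the 78 members, 16 members had more than 1, and 9 of the 11 tested among them had the same leading transcript in all 4 libraries. The other 2 were Dnaja3, a mitochondrial J-domain gene, and Dnajb2. Dnajb2 summed to 5.07 FPKM in mutant upper, 3.997 in control upper, 3.23 in mutant lower and 4.59 in control lower molars. Its leading entry held 91.4% to 95.3% of that sum in the other 3 libraries but 0.342% in mutant upper, where another entry led with 65.8%.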

How the data were processed

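RNA of 4 libraries was sequenced after laser capture, a column kit for small samples and amplification with NuGEN Ovation RNA-Seq v2, per the labels' protocols. The submitters' processing notes list Bowtie 0.12.7, TopHat 1.4.1 and genome build mm9. The deposited Cufflinks tables hold FPKM and coverage, a signal of mean read depth per transcript base, per the file headers. The Cufflinks version and the treatment of reads that fit several places are not given in the sources used here. Strand is not stated, so antisense partners cannot be told apart.

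FPKM values were summed per gene name. Left out were 66 genes with a failed estimate and 714 small RNA names, and 10536 genes that averaged 1 FPKM or more were kept. Values were put on the log2(FPKM + 1) scale, which understates change of weak genes. Coverage times transcript length gave aligned bases. No count model was possible. Genes named follow a rule: all stress-inducible members, those counted in both jaws, per role group the 2 highest levels and the largest mean genotype difference each way, and the 3 largest jaw and genotype-by-jaw differences each way; exceptions are stated. Of the lists of other genes it takes those counted in both jaws and the 2 highest. For 1 gene that the rule picks, the result is left out. The members and lists were chosen with earlier results of these data known. The limma step (3.58.1, R 4.3.3) and the threshold were tested on simulated data. Promoter sequences are from RefSeq, build GRCm38.p6, so only names and windows come from that build. Tables were handled with pandas 2.3.3.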

Additional observations from a re-analysis of the deposited data

Results flagged for a closer look

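The mutant minus control difference had opposite signs in the jaws in 16 of 58 members, and in 2 of them the gap between the jaws was also at least 1. This contrast between jaws was not tested, since each group has 1 library. Opposite signs, with or without a gap of at least 1, were not counted over all genes tested. Whether the members differ from other genes in this respect is therefore not known. Dnajc8 was at 0.05 in upper and -1.11 in lower molars, a gap of 1.16. Hspe1 was at 0.27 in upper and -0.91 in lower molars, a gap of 1.18. The gap over all genes had a median of 0.34, and neither gene's gap reached 1 after any of the 3 rescalings.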

How the results depend on the processing

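Counts of members moved with the scale. After rescaling by median of ratios, by upper quartile and by total, 1 member was lower in lower molars in place of 12 (all genes: 3.00%, 2.82% and 2.97% in place of 9.43%), and the genotype-by-jaw count was 0 higher and 2 lower (all genes: 1.51% to 1.77% and 2.41% to 2.88%). Median of ratios and upper quartile each gave 1 member lower in mutant upper than lower molars (0.977% of all genes). Both mutants lay above both controls in 9, 10 and 10 members after these rescalings, and below both in 18 after the upper quartile (all genes: 24.5%, 29.7% and 26.7% above, 18.2% below). For these shares the limit of 1 FPKM was applied again after rescaling. The 24.3% given earlier for median of ratios used the genes kept before rescaling. With a pseudocount of 0.1 FPKM, upper minus lower gave 2 members higher and 1 lower in mutants and 1 each way in controls, and genotype by jaw gave 10 higher (all genes: 7.49%, 0.835%, 2.19%, 0.845% and 12.7% in that order). With a pseudocount of 5 FPKM, lower molars gave 0 higher and 4 lower, and genotype by jaw 2 higher and 0 lower (all genes: 0.275%, 3.04%, 1.34% and 0.465%). A mean of at least 5 FPKM gave 1 member higher in lower molars, 0 lower by genotype and jaw, and 3 above both controls (all genes: 0.844%, 1.31% and 6.02%). With no filter 10 members lay above both controls (11.1% of all genes). The highest transcript per gene gave 1 member lower in upper molars, 1 lower between jaws in mutants and 2 lower by genotype and jaw (all genes: 4.10%, 0.867% and 2.17%); it reversed Dnajb2 to -2.19 in upper molars. Lower-molar medians relative to all genes with no filter, where the median of all genes itself moves, were -0.86 (constitutive), -0.71 (CCT), -0.47 (ER), -0.57 (mitochondrial) and 0.18 (small heat shock). The small heat shock median was 0.61 at a pseudocount of 5 and 1.64 at a mean of at least 5 FPKM. The latter is the value of Hspb6 alone (mean 6.64 FPKM), since Hspb8 (mean 2.02) falls below that limit. The lower-molar stress ratio was 0.53 with geometric means. The cause was not tested.

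limma was run with genotype and jaw as additive terms and the jaws standing in for replicates. For genotype it found 0 of 58 members at an adjusted p under 0.05, against 680 of 10536 genes tested. At an unadjusted p under 0.05 it found 15 members (25.9%, against 17.0% of all genes). The lowest adjusted p of a member for genotype, 0.0509, was that of Dnajb11. For jaw limma found 0 members at an adjusted p under 0.05, against 98 of 10536 genes tested. At an unadjusted p under 0.05 it found 1 member (1.72%, against 5.47% of all genes). limma gave no value for single jaws. Its standard error was the same for every member (0.297), and its values were not rescaled, so its p-values do not measure a gene's own spread. The labels give no replicate numbers, and this limma fit with jaw as a term is the analysis paired by jaw. Depth limits members under 1 FPKM.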
